A study of Mus musculus with 7 samples.

Results

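The proteasome subunit genes are the mouse genes whose GENCODE vM21 symbol consists of Psm, a letter from a to g and a number. Of the 21928 genes in the expression tables, 48 carried such a symbol, and all 48 passed a filter that asks for a TPM of 1 or more in 3 or more of the 7 libraries, which 13630 genes passed in all. TPM is a level per transcript length, scaled to one total in every library. The libraries came from 4 wild-type pups and 3 *Meioc*-null pups whose spermatogenesis had been synchronized, each from 1.5 testes of 1 pup. The mice were on a C57BL/6N background after backcrossing, and the null pups carried the allele *Meioc* tm1.1Dpc, which is not restricted to a cell type. Pups of both genotypes received WIN18446, which blocks the making of retinoic acid, at 0.1 mg/g from P2 to P8, and retinoic acid itself at 0.0125 mg/g on P9, and their testes were taken 6.75 days later, when the germ cells are enriched for preleptotene spermatocytes. Ribosomal RNA was depleted before stranded libraries were made from the whole testis, so somatic and germ cells contributed to every value. In such bulk samples, fewer cells of a type and less RNA per cell cannot be told apart.

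The proteasome degrades proteins that carry a chain of ubiquitin. Its barrel-shaped core, the 20S particle, is built of rings of alpha (Psma) and beta (Psmb) subunits, of which only a few beta subunits cut peptide bonds. The 19S regulatory particle caps the core, binds ubiquitin, removes it and unfolds the substrate with a ring of ATPases (Psmc) held by non-ATPase subunits (Psmd). Other caps, the activators of the Psme family, open the core without ubiquitin. Cells exposed to interferon exchange the catalytic beta subunits for immuno-type ones, and the testis makes an alpha subunit of its own, Psma8, which is needed for meiosis in spermatocytes.

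Depth ran from 12537852 to 20552702 estimated counts per library, and every member had at least 22 counts in every library. *Meioc* itself was counted at 468, 660.2, 664 and 720.0 CPM in wild type and at 400.3, 299.6 and 413 CPM in the null, so that every null library lay below every wild-type library, with a log2 fold change of 0.76. The gene-level value also covers the part of the transcript that a null allele can leave, and it is therefore a partial check of the labels. Markers of germ cells (*Ddx4*, *Dazl*, *Mael*, *Tdrd1*) summed to 1583 to 1726 CPM in wild type and to 1172 to 1283 CPM in the null. Most of this sum was *Dazl*, at 1018 to 1177 CPM in wild type and 642 to 787.5 CPM in the null. *Ddx4* and *Mael* were also higher in every wild-type library, whereas *Tdrd1* overlapped and had a log2 fold change of −0.24. Markers of the preleptotene stage to early prophase (8 genes, *Stra8* and *Meioc* among them) summed to 1705 to 2528 and to 907 to 1196 CPM. This sum includes *Meioc*, the gene altered in the null. Of the 8 genes, *Stra8*, *Rec8* and *Spo11* overlapped between the groups, and the other 5 were higher in every wild-type library. The 8 markers of pachytene and later cells summed to at most 9.64 CPM in any library, and *H1fnt*, *Prm1*, *Tnp1* and *Pgk2* were at the floor of 3 counts. The 10 Sertoli cell markers summed to 5225 to 5346 CPM in wild type and to 5383 to 6095 CPM in the null. Without *Clu*, the most abundant of them, their sums overlapped, reaching 1801 CPM in wild type and ranging from 1701 to 1822 CPM in the null. Markers of undifferentiated spermatogonia summed to 111 to 132 CPM in wild type and to 150.3 to 240.0 CPM in the null, and those of differentiating spermatogonia to 297 to 375 and to 244 to 273 CPM. Leydig (267 to 555 and 314 to 629 CPM), peritubular myoid (535 to 614 and 509 to 593 CPM) and endothelial markers (64.0 to 81.0 and 69.2 to 85.3 CPM) overlapped. Thus the summed markers of early spermatocytes were lower in every null library, and the part of these markers in the results was not tested.

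Fold changes are given as wild type over *Meioc*-null from the quasi-likelihood test of edgeR, adjusted by Benjamini-Hochberg over all 13630 genes. Of the 48 members, 3 were higher in wild type at an adjusted p under 0.05, which were the core subunit *Psmb4*, the 19S ATPase *Psmc3* and the 19S subunit *Psmd11*. One activator, *Psme1*, was lower, and 44 members did not pass. The members called higher are 6.25% of the family beside 7.77% of all genes tested, the member called lower is 2.08% beside 3.33%, and the 4 together are 8.33% beside 11.1%. The family thus held no larger share of called genes than the genome did. In CPM, 14 members had groups that did not overlap, which is 29.2% of the family beside 26.2% of all genes. Wild type was above in 12 of them, 25% of the family beside 15.4% of all genes, and below in 2, 4.17% beside 10.8%.

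**Figure D1:**
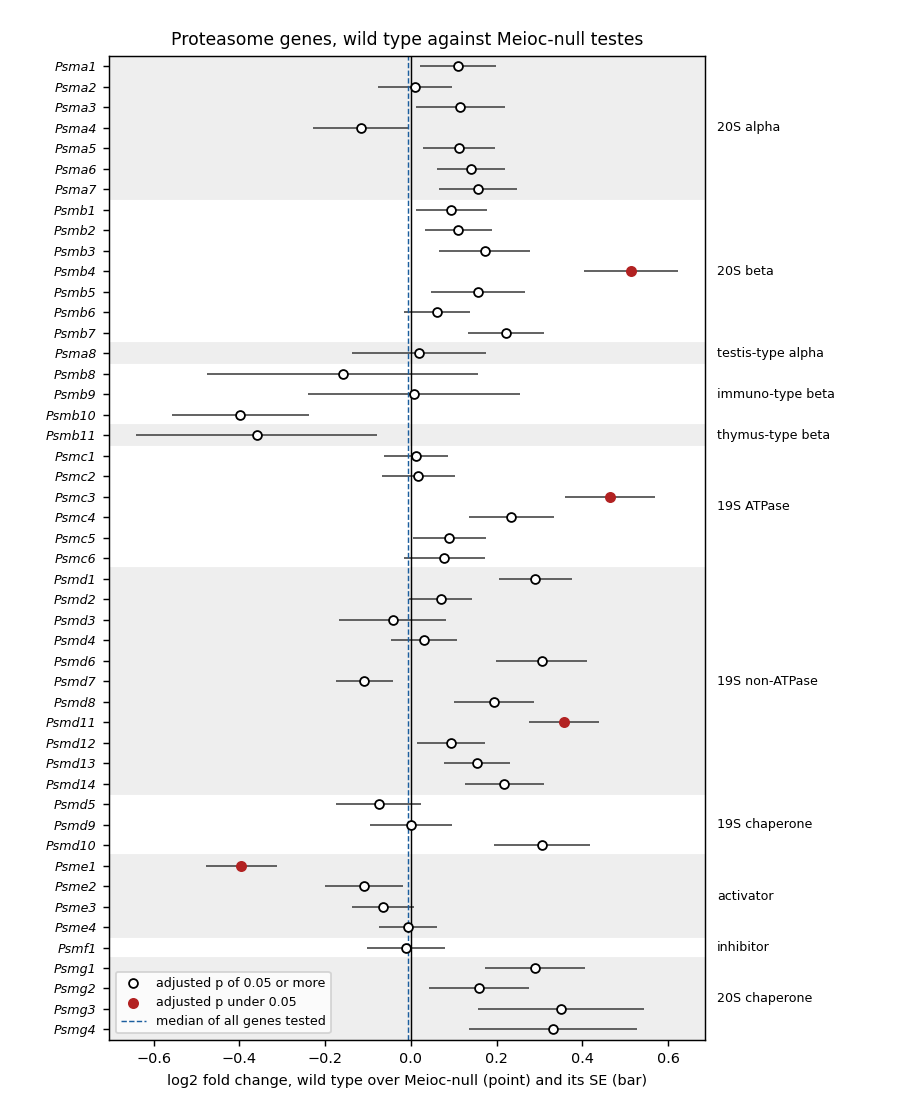
Log2 fold change of each of the 48 proteasome genes (x axis, wild type over *Meioc*-null, from edgeR), with its standard error as a bar, grouped by class of subunit; filled points passed an adjusted p of 0.05. Most points lie to the right of 0 and the 4 activators to its left, and only *Psmb4*, *Psmc3*, *Psmd11* and *Psme1* are filled.

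The fitted fold changes were small throughout, from −0.40 to 0.51 on the log2 scale. The median over the 48 members was 0.09, against −0.01 over all genes tested, and 35 members had a positive value beside 6694 of the 13630 genes. Positive values prevailed among the 14 constitutive core genes (13 of 14, median 0.11) and the 17 genes of the 19S particle (15 of 17, median 0.09). All 4 activators had negative values, with a median of −0.09. The size of these medians depended on the scale. Those of the members and of the core were positive in every fit to counts and negative on TPM. The median of the activators was negative in every fit. With no scaling beyond library size the median was 0.02 for the members and −0.08 for all genes. With each library's trend with transcript length removed it was 0.016 for the members, 0.016 for the core genes and −0.014 for all genes. On log2(TPM + 1) the median of all genes moved to −0.23 and that of the members to −0.16, and 34 of the 48 members were above the median of all genes.

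The 7 alpha subunits of the core, *Psma1* to *Psma7*, form the outer rings and the gate of the barrel. None of the 7 passed the test, and none separated the groups in CPM. *Psma7* had the highest fold change among them, 0.16 (SE 0.091, adjusted p = 0.275 by edgeR). It was counted at 165, 172, 168 and 171 CPM in wild type and at 165, 130.1 and 159 CPM in the null, so that the groups met at 165 CPM and null replicate 2 stood apart from the rest. *Psma4* was the only alpha gene with a negative value, −0.12 (SE 0.11, adjusted p = 0.507 by edgeR). Its wild-type libraries held 199.5, 182, 166 and 169.5 CPM and its null libraries 194, 164 and 224 CPM, which overlapped in full.

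Among the 7 constitutive beta subunits, which form the inner rings, all 7 fold changes were positive and 1 passed. *Psmb4*, a beta subunit without catalytic activity, was counted at 103, 120.0, 129 and 117 CPM in wild type and at 94.6, 73.8 and 77.95 CPM in the null. The lowest wild-type library was above the highest null library. Its log2 fold change was 0.51 (SE 0.11, adjusted p = 0.0226 by edgeR), the highest of the 48 members in this fit. On log2(TPM + 1) its difference was 0.27 and did not pass (adjusted p = 0.0582 by limma). The call was lost when any library but wild-type replicate 1 or null replicate 1 was left out (adjusted p between 0.0588 and 0.0832), with the fold change between 0.44 and 0.50. *Psmb4* spans 94884093 to 94886961 on the minus strand of chromosome 3 (GRCm38), and no 31-base stretch of its main transcript occurs in another GENCODE vM21 gene. Its RefSeq promoter on GRCm38.p6, shown because its fold change was the highest of the members in the edgeR fit, is the stretch chr3:94886962-94887208 on the minus strand, upstream of every annotated start of the gene, in which none of the 6 motifs searched was found:
Psmb4 promoter: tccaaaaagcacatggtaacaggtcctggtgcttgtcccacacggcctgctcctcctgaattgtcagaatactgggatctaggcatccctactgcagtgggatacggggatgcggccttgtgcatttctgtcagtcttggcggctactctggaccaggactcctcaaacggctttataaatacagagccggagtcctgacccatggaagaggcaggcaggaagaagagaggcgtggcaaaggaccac

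The 3 catalytic subunits of the constitutive core, *Psmb6*, *Psmb7* and *Psmb5*, did not pass. *Psmb7*, which cuts after basic residues, came closest, with a log2 fold change of 0.22 (SE 0.089, adjusted p = 0.128 by edgeR) and all wild-type libraries (143 to 156 CPM) above all null libraries (114 to 141 CPM). *Psmb6* had the lowest fold change of the class, 0.06 (SE 0.077, adjusted p = 0.627 by edgeR). It was counted at 117, 119, 124 and 114 CPM in wild type and at 118, 105 and 118 CPM in the null. Null replicate 2 was low, and the other null libraries lay within the wild-type range.

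The ring of 6 ATPases, *Psmc1* to *Psmc6*, pulls the unfolded substrate into the core. All 6 fold changes were positive, and *Psmc3* passed. *Psmc3*, which lies on chromosome 2 from 91054009 to 91066369, was counted at 251, 302, 299.8 and 306.5 CPM in wild type and at 229, 182 and 219 CPM in the null. Wild-type replicate 1 was closer to the null libraries than the other 3 wild-type libraries were, but the groups did not overlap. The log2 fold change was 0.47 (SE 0.10, adjusted p = 0.0245 by edgeR). The call was lost on leaving out any library but wild-type replicate 1 or null replicate 1 (adjusted p between 0.0683 and 0.0745). On log2(TPM + 1) the difference of *Psmc3* was 0.20 and did not pass (adjusted p = 0.0851 by limma). At the other end of the class, *Psmc1* had a fold change of 0.01 (SE 0.074, adjusted p = 0.93 by edgeR). It was counted at 106, 104, 95.7 and 98.2 CPM in wild type and at 105, 97.5 and 97.2 CPM in the null, which overlapped.

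The 11 non-ATPase subunits of the 19S particle include ubiquitin receptors (*Psmd4*), a deubiquitinase (*Psmd14*) and scaffold subunits. Of these, 9 had positive values and 1 passed. *Psmd11*, a scaffold subunit that binds both the lid and the core, was counted at 68.0, 79.7, 72.6 and 78.5 CPM in wild type and at 56.6, 61.0 and 57.5 CPM in the null. The groups were separate in CPM, with a log2 fold change of 0.36 (SE 0.082, adjusted p = 0.0261 by edgeR). The call was lost on leaving out any library but wild-type replicate 1 or null replicate 1 (adjusted p between 0.0547 and 0.0889). In TPM the groups overlapped, and the difference on log2(TPM + 1) was 0.12 and did not pass (adjusted p = 0.394 by limma). The level of *Psmd11* is uncertain, since 39.0% of the 31-base stretches of its main transcript also occur in the processed pseudogene *Gm14048*, which the tables do not list. *Psmd7*, a partner of *Psmd14*, had the lowest fold change of the class, −0.11 (SE 0.067, adjusted p = 0.299 by edgeR). It was counted at 134, 129, 129 and 134 CPM in wild type and at 140.1, 139.5 and 145 CPM in the null, all 3 null libraries being above the wild-type ones. *Psmd1*, *Psmd6*, *Psmd8* and *Psmd14* also had every wild-type library above every null library, with adjusted p between 0.057 and 0.191 in the same test.

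The promoters of *Psmd11* (RefSeq, GRCm38.p6, chr11:80428365-80428614, plus strand) and of *Psmd12* (chr11:107479278-107479483, plus strand) are shown for different reasons. The first belongs to a member called higher in wild type, and the second held matches to 3 motifs, more than any other member. Capitals mark, from left to right in *Psmd12*, a match to the antioxidant response element TGACNNNGC read on the opposite strand, to the STRA8-MEIOSIN site CNCCTCAG and to the E2F site TTCCCGC:
Psmd11 promoter: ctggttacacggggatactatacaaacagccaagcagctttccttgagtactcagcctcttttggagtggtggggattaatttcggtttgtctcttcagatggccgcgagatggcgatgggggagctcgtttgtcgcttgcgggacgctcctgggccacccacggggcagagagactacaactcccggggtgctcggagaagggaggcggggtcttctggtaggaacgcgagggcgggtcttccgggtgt
Psmd12 promoter: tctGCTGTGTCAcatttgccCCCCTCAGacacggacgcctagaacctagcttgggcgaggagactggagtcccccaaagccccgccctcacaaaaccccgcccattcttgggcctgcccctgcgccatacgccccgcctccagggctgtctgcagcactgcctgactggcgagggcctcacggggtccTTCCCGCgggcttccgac
The matches in *Psmd12* began 247, 230 and 62 bases before the start. *Psmd12* itself had a log2 fold change of 0.09 and an adjusted p of 0.45 in the edgeR test, with overlapping groups.

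The 3 chaperones of the 19S particle, *Psmd5*, *Psmd9* and *Psmd10*, bind its ATPases during assembly and are absent from the finished particle. *Psmd10*, also known as gankyrin, had the highest value of this class, 0.31 (SE 0.11, adjusted p = 0.102 by edgeR). Its levels of 24.2, 21.5, 21.6 and 24.1 CPM in wild type were above the 19.3, 16.1 and 19.96 CPM of the null. *Psmd5* had the lowest, −0.07 (SE 0.099, adjusted p = 0.642 by edgeR), at 91.5, 83.3, 74.2 and 72.6 CPM in wild type and at 89.3, 77.7 and 86.8 CPM in the null. The 4 chaperones of the core, *Psmg1* to *Psmg4*, which pair up alpha subunits into a ring, all had positive values (median 0.31), but these are low genes with standard errors up to 0.20, and none passed. Their median was 0.14 with each library's trend with transcript length removed and 0.025 on log2(TPM + 1), where 2 of the 4 were positive. *Psmg3* had the highest, 0.35 (SE 0.19, adjusted p = 0.25 by edgeR), at 6.17, 5.31, 5.47 and 6.56 CPM in wild type and at 5.61, 3.48 and 4.68 CPM in the null. *Psmg2* had the lowest, 0.16 (SE 0.12, adjusted p = 0.39 by edgeR). It stood at 18.65, 18.5, 18.6 and 22.00 CPM in wild type and at 19.2, 15.5 and 17.5 CPM in the null, wild-type replicate 4 being above the others.

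Of the 4 activators, 1 passed the test, in the direction opposite to that of the other called members. *Psme1*, which encodes the alpha subunit of the interferon-inducible cap PA28, was counted at 91.4, 87.5, 85.3 and 90.7 CPM in wild type and at 112, 108 and 129.5 CPM in the null. The wild-type libraries lay within a narrow range, and all 3 null libraries were above it. The log2 fold change was −0.40 (SE 0.083, adjusted p = 0.0208 by edgeR), and it remained negative and past the threshold under every scaling tried, TPM included. Leaving out wild-type replicate 2, wild-type replicate 3 or null replicate 3 raised its adjusted p to 0.064, 0.0688 and 0.0724. *Psme1* lies on chromosome 14 from 55578123 to 55581529 on the plus strand, and 22.1% of the 31-base stretches of its main transcript also occur in other genes, pseudogenes among them.

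*Psme2*, the beta subunit of the same cap, is its neighbour on the minus strand, from 55587441 to 55591113. It was counted at 56.8, 57.0, 61.1 and 62.6 CPM in wild type and at 71.3, 57.4 and 63.4 CPM in the null, which overlapped. The log2 fold change was −0.11 (SE 0.090, adjusted p = 0.441 by edgeR). On log2(TPM + 1), however, *Psme2* was lower in wild type by limma (difference −0.46, adjusted p = 0.0168), at 139, 130.2, 138 and 140.4 TPM against 199.8, 189.7 and 177 TPM. Of its 2 transcripts in the tables, the shorter, of 795 bases, took 29.8%, 41.6%, 35.9% and 29.7% of the gene's counts in wild type and 41.9%, 48.3% and 44.8% in the null, every wild-type library being below every null library. The value is uncertain, because 66.2% of the 31-base stretches of its main transcript are shared with the retrogene *Psme2b*. The promoter of *Psme2* (RefSeq, GRCm38.p6, chr14:55591114-55591351, minus strand) is shown because *Psme2* is the activator with a match to the STRA8-MEIOSIN site, marked in capitals, which began 172 bases before the start:
Psme2 promoter: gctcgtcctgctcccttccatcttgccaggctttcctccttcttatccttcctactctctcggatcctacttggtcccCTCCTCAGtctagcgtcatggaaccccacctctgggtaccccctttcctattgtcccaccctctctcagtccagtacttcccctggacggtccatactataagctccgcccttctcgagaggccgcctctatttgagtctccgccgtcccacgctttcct

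The nuclear activator *Psme3* was counted at 123, 114, 127 and 120.5 CPM in wild type and at 128, 130.2 and 122 CPM in the null (log2 fold change −0.07, SE 0.073, adjusted p = 0.572 by edgeR). *Psme4*, which encodes PA200, a cap known from the testis for the degradation of acetylated histones, was nearly level, at 180.3, 181, 187 and 179.9 CPM in wild type and at 178, 192 and 178 CPM in the null (log2 fold change −0.01, SE 0.067, adjusted p = 0.958 by edgeR). Their groups overlapped. The inhibitor *Psmf1* likewise overlapped, at 31.1, 31.1, 29.2 and 29.3 CPM in wild type and at 31.3, 32.4 and 27.5 CPM in the null, with a fold change of −0.01. On the TPM scale 4 members were lower in wild type by limma, which were *Psme1*, *Psme2*, *Psma4* and *Psmd7*, and 0 were higher. That is 8.33% of the family beside 15.3% of all genes lower, and none beside 3.23% higher. At an unadjusted p under 0.05, edgeR on counts had 12 members, 25% of the family beside 30.3% of all genes.

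**Figure D2:**
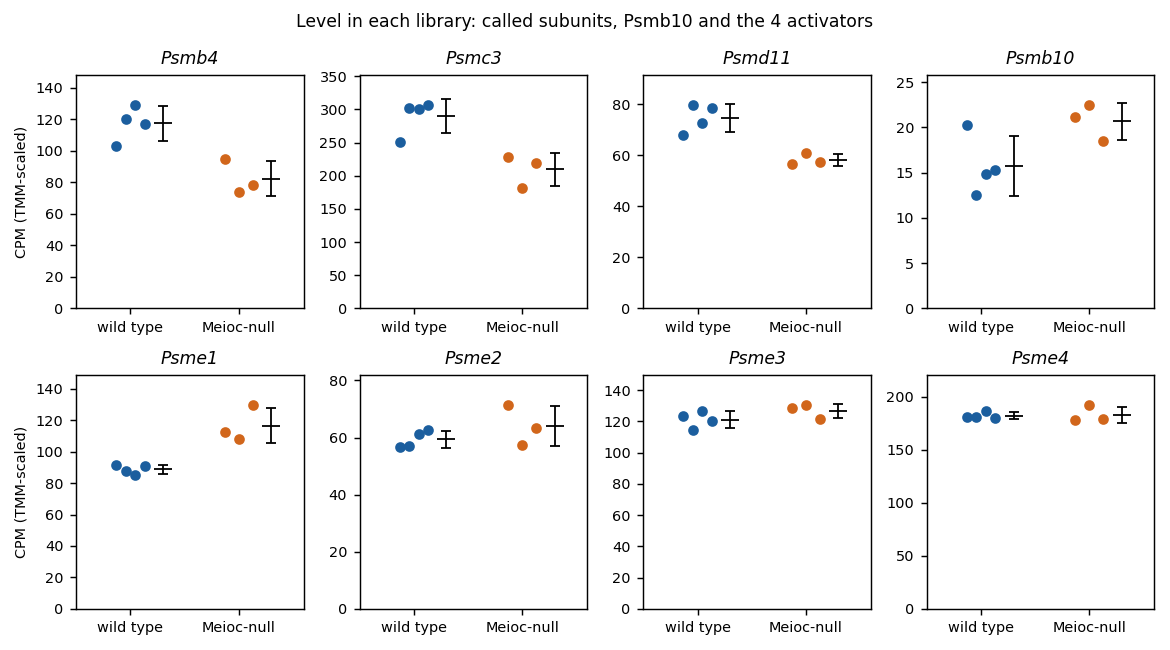
Level in CPM (TMM-scaled, y axis from 0) in each library of the 4 called members, of *Psmb10* and of the other 3 activators; each point is 1 library, the horizontal mark is the group mean and the bar its SD. The wild-type points of *Psmb4*, *Psmc3* and *Psmd11* lie above the null points, those of *Psme1* lie below, and the groups overlap in the other 4 panels.

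The 5 immuno- and testis-type subunits gave 0 calls by edgeR, with 1 (*Psmb10*) at an unadjusted p under 0.05. *Psma8*, the testis-type counterpart of *Psma7*, lies on chromosome 18 and was counted at 22.5, 19.9, 14.6 and 17.6 CPM in wild type and at 17.1, 16.7 and 21.2 CPM in the null. The spread within each genotype exceeded the difference between them, with a log2 fold change of 0.02 (SE 0.16, adjusted p = 0.948 by edgeR). Its sign turned negative with no scaling and on TPM (−0.05 and −0.23). *Psmb8* and *Psmb9*, which lie beside *Tap1* and *Tap2* in the MHC region of chromosome 17, were near the filter on low values. *Psmb8* was counted at 3.32, 3.21, 2.16 and 2.67 CPM in wild type and at 4.70, 2.97 and 1.79 CPM in the null (log2 fold change −0.16, SE 0.32, adjusted p = 0.763 by edgeR). *Psmb9* was counted at 2.13, 1.89, 2.70 and 1.87 CPM in wild type and at 2.40, 1.59 and 2.34 CPM in the null (log2 fold change 0.01, SE 0.25, adjusted p = 0.986 by edgeR). With 22 to 88 counts per library, differences of the size seen for *Psmb4* were not detectable in these 2 genes.

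*Psmb10*, the immuno-type counterpart of *Psmb7*, was more abundant than the other immuno-type genes. It was counted at 20.3, 12.5, 14.8 and 15.2 CPM in wild type and at 21.1, 22.5 and 18.4 CPM in the null. Wild-type replicate 1 lay among the null libraries, and the other 3 lay below them. The log2 fold change was −0.40 (SE 0.16) with an adjusted p of 0.128 by edgeR, which became 0.0246 without wild-type replicate 1 and lay between 0.157 and 0.286 on leaving out any other library. *Psmb11*, the subunit of the cortical thymic epithelium, was counted at 3.95, 3.42, 3.58 and 4.29 CPM in wild type and at 3.47, 7.68 and 3.75 CPM in the null. Null replicate 2 was above all others. The log2 fold change of −0.36 (SE 0.28, adjusted p = 0.414 by edgeR) turned to 0.08 without that library.

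Because leukocytes carry immuno-type subunits, their markers are set beside these values. The 9 macrophage and leukocyte markers summed to 218 to 226 CPM in wild type and to 311, 232 and 219 CPM in null replicates 1, 2 and 3. All 9 had negative fold changes, with 0 called by edgeR and 1 at an unadjusted p under 0.05, and their part in the values of *Psmb10* and *Psme1* was not tested.

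Ratios within a library do not move with scaling. TPM is per length, so the ratio of a specialised subunit to the constitutive one it replaces can be read as relative abundance of mRNA. *Psma8* stood at 7.83%, 6.57%, 4.95% and 5.90% of *Psma7* in wild type and at 5.93%, 7.32% and 7.72% in the null (6.31% ± 1.21 and 6.99% ± 0.94, SD, n = 4 and 3). *Psmb8* stood at 4.05% ± 0.77 of *Psmb5* in wild type and at 4.997% ± 2.24 in the null. *Psmb9* stood at 0.81% ± 0.13 of *Psmb6* in wild type and at 0.83% ± 0.14 in the null. These 3 ratios overlapped between the groups (two-sided exact permutation p = 0.514, 0.457 and 0.80). *Psmb10* stood at 8.28%, 5.44%, 6.60% and 6.83% of *Psmb7* in wild type and at 9.53%, 12.4% and 8.97% in the null. Every wild-type library was below every null library, with a log2 difference of −0.60. The exact permutation p was 0.0571, the smallest that 35 splits of 4 against 3 allow, and 0.229 after adjustment over the 4 ratios, so the design could not reach 0.05.

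**Figure D3:**
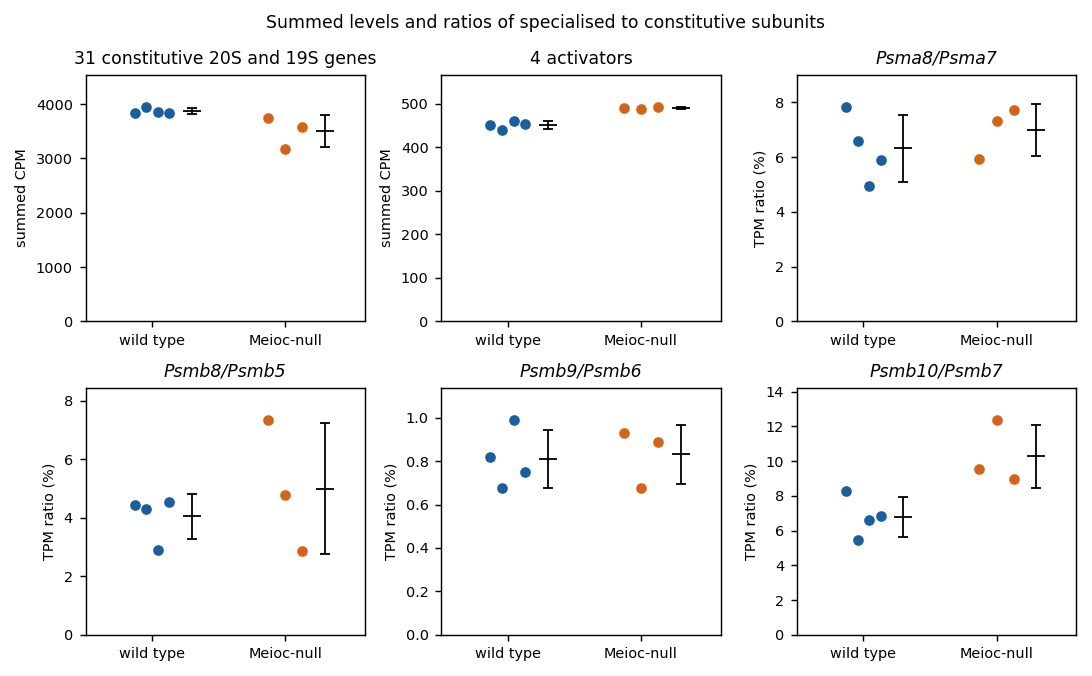
Summed CPM of the 31 constitutive core and 19S genes and of the 4 activators, and the TPM of each specialised subunit in percent of its constitutive counterpart (y axes from 0); each point is 1 library, with the group mean and SD beside it. The activators' sum, through *Psme1*, and the *Psmb10*/*Psmb7* ratio are higher in all 3 null libraries, and null replicate 2 is the lowest in the constitutive sum.

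Summed over the 31 constitutive core and 19S genes, the wild-type libraries held 3831, 3952, 3856 and 3840 CPM, against 3740, 3173 and 3588 CPM in the null. The wild-type values were close together and above all null values. Null replicate 2 was the lowest of the 7 libraries for 25 of these 31 genes in CPM. On TPM it was the lowest for 3 of them, and wild-type replicates 2, 3 and 4 for 4, 9 and 12. Without null replicate 2, edgeR called 0 members higher in wild type, beside 296 of all 13630 genes. *Psme1* was still called lower, beside 57 genes in all, and the median of the 48 members was 0.04. The fold changes were then 0.44 for *Psmb4*, 0.37 for *Psmc3* and 0.39 for *Psmd11*. Leaving out wild-type replicate 2, 3 or 4 or null replicate 3 likewise left 0 members called higher, beside 254, 237, 364 and 113 of all genes. The 4 activators summed to 452, 439, 459.8 and 454 CPM in wild type and to 490.1, 488 and 493 CPM in the null, null replicate 2 among them. This separation rested on *Psme1*, since the other 3 summed to 351.7 to 374.5 CPM in wild type and to 363.5 to 379.3 CPM in the null, which overlapped. As a share of all TPM, the 48 genes took 0.665%, 0.593%, 0.586% and 0.589% in wild type and 0.692%, 0.663% and 0.660% in the null. Wild-type replicate 1 lay among the null libraries, so the groups overlapped on this scale. In CPM the same 48 genes summed to 4535 to 4639 in wild type and to 3900 to 4488 in the null. The members are short, with a median length of 1378 bases against 2821 for all genes tested.

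**Figure D4:**
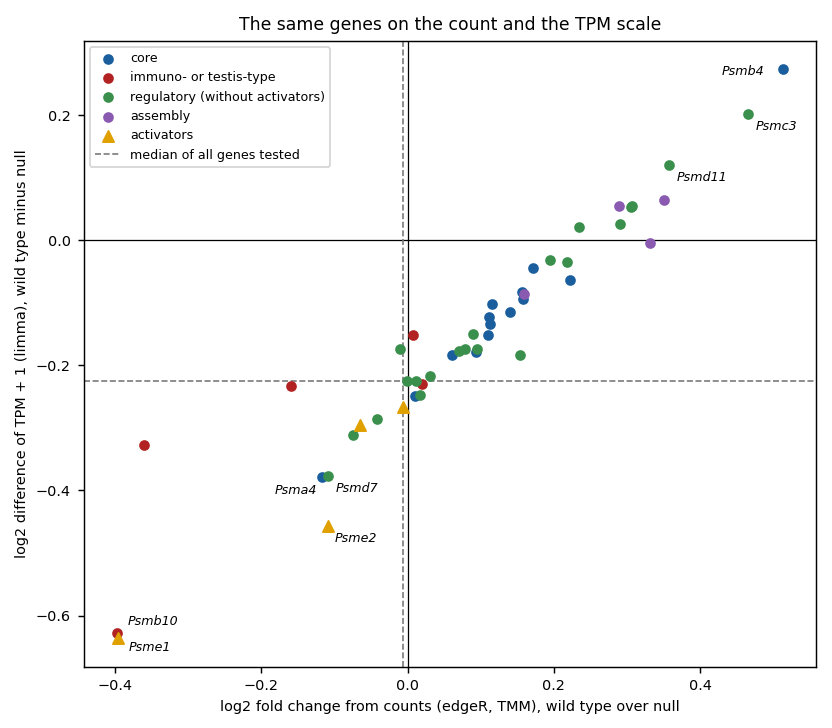
Log2 fold change of the 48 members from counts (x axis, edgeR with TMM) against their difference on log2(TPM + 1) (y axis, limma), by group of subunits; dashed lines mark the medians of all genes tested, −0.01 and −0.23. The order of the members is nearly the same on both axes, while most members are above 0 on the first and below 0 on the second. *Psme1* is far below both dashed lines, and so is *Psmb10*, which was called on neither axis.

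Subunits of the core are present in equal numbers in the particle, but their levels per length were not equal. The mean TPM over the 7 libraries ran from 462 ± 41.5 (SD) for *Psma3* to 45.7 ± 5.54 for *Psmb5*, 10.1-fold lower. *Psma3*, *Psma4* and *Psma7* were the most abundant, and *Psma2* and *Psmb5* the least. Of the 13 pairs of neighbours in this order, 3 did not overlap over the libraries, which were *Psma7* over *Psmb2*, *Psmb3* over *Psma5* and *Psma5* over *Psma2*. In the 19S particle the mean ran from 329 ± 34.0 for *Psmc6* to 29.6 ± 6.02 for *Psmd3*, 11.1-fold lower, and 3 of 16 neighbours did not overlap. *Psmc3*, the called ATPase, ranked second there at 262 ± 22.7 TPM and was separate from *Psmd6*, the next. *Psmb5* is uncertain, since 74.0% of its 31-base stretches occur elsewhere, as are *Psma3* (79.0%), *Psmb3* (66.9%) and *Psma5* (64.0%). In all, 12 of the 48 members shared over 10% of these stretches with another gene.

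**Figure D5:**
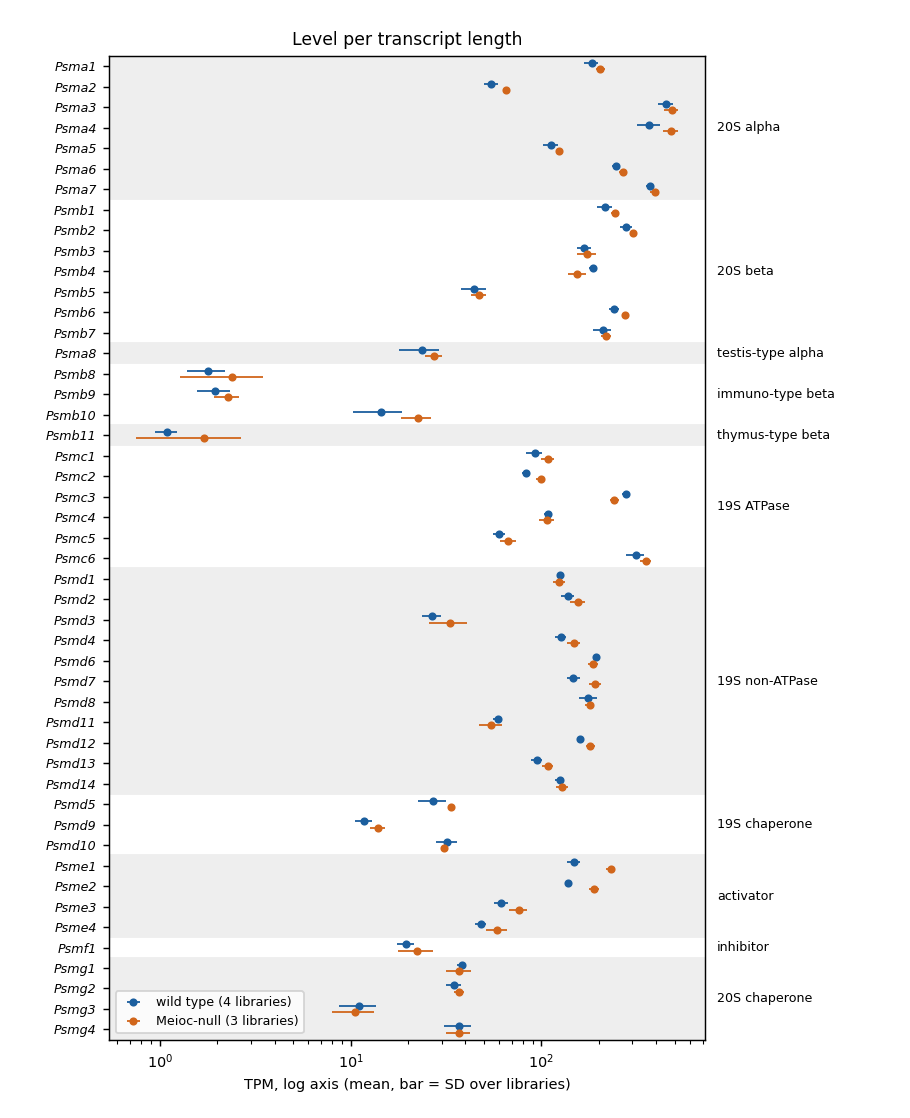
TPM of the 48 members by class (log axis), as the mean of the 4 wild-type (blue) and the 3 *Meioc*-null (orange) libraries with the SD as a bar. Constitutive core and 19S genes lie between 29.6 and 462 TPM as means of the 7 libraries, and *Psmb8*, *Psmb9* and *Psmb11* near 1 to 3 TPM.

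Of the 48 members, 32 had a single transcript in the tables. Among the other 16, the main transcript held over 95% of the counts in each library for 4. *Psmd13* had a transcript of 1382 bases that took 1.39% to 2.63% of its counts in the 4 wild-type libraries and was listed at 0 in the 3 null libraries. As kallisto divides reads between transcripts by estimation, a value of 0 on one transcript is not a measured absence.

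A list of 41 other genes of the ubiquitin-proteasome pathway was examined beside the family. Of these, 39 were tested, *Nlrc5* was below the filter and *Paaf1* was not used here. Of the list, 4 were higher and 3 lower in wild type, 17.9% of the list beside 11.1% of all genes, with a median log2 fold change of 0.02. Of the genes for ubiquitin and its activation, *Uba6*, an activating enzyme, stood at 532, 719.8, 759 and 807 CPM in wild type and at 444, 399 and 484 CPM in the null. Its log2 fold change was 0.67 (SE 0.14, adjusted p = 0.0192 by edgeR). The wild-type libraries were all above the null ones, whereas the main activating enzyme *Uba1* was at 0.02 and did not pass.

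Of the SCF ubiquitin ligase, the scaffold *Cul1* was higher in wild type (log2 fold change 0.45, adjusted p = 0.0458 by edgeR), at 236 to 345 CPM against 200.3 to 234 CPM. On log2(TPM + 1) its difference was 0.19 and did not pass (adjusted p = 0.17 by limma). Its substrate receptor *Fbxw11* was lower (−0.29, adjusted p = 0.0375 by edgeR), at 95.7 to 108 CPM against 122 to 125 CPM. Both calls were lost on leaving out any library but wild-type replicate 1, with adjusted p up to 0.131 for *Cul1* and 0.109 for *Fbxw11*. *Fbxo7*, an F-box protein that binds the proteasome inhibitor, was higher (0.50, adjusted p = 0.0175 by edgeR), at 39.6 to 48.6 CPM against 29.5 to 33.3 CPM. The call of *Fbxo7* was lost in 4 of the 7 fits that left out 1 library (adjusted p up to 0.0711), and that of *Uba6* in 5 of 7 (up to 0.0648). None of the 8 shuttle genes and none of the 3 enzymes bound to the proteasome passed, with log2 fold changes from −0.31 for *Ubqln2* to 0.25 for *Ubqln4* among the shuttles. *Nfe2l1* and *Nfe2l2*, transcription factors that raise proteasome genes when degradation fails, had fold changes of −0.03 and −0.04 and did not pass (adjusted p = 0.842 and 0.801 by edgeR).

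Of the 7 tested genes of MHC class I processing and its inducers, 6 had negative fold changes, beside 6936 of all 13630 genes. The 2 genes called, both lower in wild type, are 28.6% of these 7, beside 3.33% of all genes called lower. The list is short and was chosen with earlier results of these data known. *Irf1*, an interferon-responsive transcription factor, was counted at 26.9, 23.0, 23.9 and 25.0 CPM in wild type and at 31.2, 43.9 and 36.7 CPM in the null (log2 fold change −0.59, SE 0.12, adjusted p = 0.0199 by edgeR). *Erap1*, which trims peptides after the proteasome, was counted at 87.9, 95.4, 87.4 and 93.4 CPM in wild type and at 107, 118 and 119 CPM in the null (log2 fold change −0.33, SE 0.076, adjusted p = 0.0261 by edgeR). All null libraries were above all wild-type libraries in both, and on leaving out 1 library the call of *Irf1* was lost in 4 of 7 fits and that of *Erap1* in 5 of 7. *Tap2*, by contrast, had the one positive value, 0.09, and *Tap1* one of −0.06, with adjusted p of 0.804 and 0.878 in the edgeR test.

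The RefSeq promoter table of GRCm38.p6 held 43 windows for 40 of the 48 members. The 250 bases before each start in it were searched on both strands for 6 motifs. As GENCODE vM21 annotates the genes, the windows of *Psmb8*, *Psmb9*, *Psmb11*, *Psmd5*, *Psmd9*, *Psmd13*, *Psme1* and *Psmf1* lay inside the gene. Matches in these windows are therefore not upstream of the gene. The antioxidant response element TGACNNNGC, which is bound by *Nfe2l1* and *Nfe2l2* products, was found in 5 of the 43 windows, those of *Psmb5*, *Psmb6*, *Psmc6*, *Psmd9* and *Psmd12*, which is 11.6% beside 10.2% of all 32851 windows. The STRA8-MEIOSIN site CNCCTCAG was found in 4 windows (9.30% beside 6.42%), of *Psmb11*, *Psmd12* and *Psme2*. The E2F site TTCCCGC was found in 3 (6.98% beside 3.82%), of *Psma1*, *Psmc4* and *Psmd12*. The interferon-stimulated response element core GAAANNGAA was found in 3 (6.98% beside 7.13%), of *Psmb3*, *Psmd4* and *Psmd9*, and the gamma-activated site TTCNNNGAA in 2 (4.65% beside 7.02%), of *Psmb8* and *Psmg1*. The CCAAT box was found in 14 (32.6% beside 33.9%). No window of *Psmb4* or *Psmd11* held any of the 6, and a match is a description of the letters, not a site of binding.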

How the data were processed

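Bulk RNA-seq of 4 wild-type and 3 *Meioc*-null preleptotene-enriched testes was analysed, with groups and replicate numbers from the sample titles. The authors trimmed reads with cutadapt 1.8 and quantified them with kallisto 0.44.0 (bias-corrected, strand-specific) against GENCODE Basic vM15. The deposited tables list protein-coding transcripts, each with its estimated count and its TPM; the authors renormalized TPM over these transcripts, so it keeps no depth. Estimated counts can be fractional, as kallisto shares out reads between transcripts, which affects members with pseudogenes. ERCC spike-in mixes were added and were not used here.

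Transcripts were matched to GENCODE vM21 genes on GRCm38 (119 of 43139 unmatched, with 0.247% to 0.282% of counts), and estimated counts were summed by gene, rounded, scaled by TMM and tested with edgeR 4.0.16 (quasi-likelihood, no covariates) in R 4.3.3, with limma 3.58.1 on log2(TPM + 1) and DESeq2 1.42.0 as alternatives. Standard errors were the fold change divided by the root of its F statistic. Genes needed a TPM of 1 or more in 3 or more of 7 libraries. The fits were also run on simulated counts, in which the planted changes were larger than those of the called members. That run therefore does not cover changes as small as theirs. All pups were separate animals, and no 2 libraries agreed within counting noise. A floor of 3 counts, 0.151 to 0.237 CPM, covers counting error only.

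The members, classes, pathway genes and marker lists were chosen with earlier results of these data known. Values in every library are given for called members, specialised members (*Psma8*, *Psmb8* to *Psmb11*, *Psme1* to *Psme4*) and the highest and lowest of each class; of other pathway genes, those called, or the highest and lowest of a group. *Psmb7*, *Psmd1*, *Psmd6*, *Psmd8*, *Psmd12*, *Psmd13*, *Psmd14*, *Nfe2l1*, *Nfe2l2*, *Uba1* and *Tap1* were named after their values were seen. Of the other pathway genes, 2 are counted but not reported by name here. Other alternatives were RLE scaling, no scaling, a pseudocount of 0.1, other filters, removal of each library's trend with length, a replicate block and leaving out each library.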

Additional observations from a re-analysis of the deposited data

Results flagged for a closer look

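For the values reported above, the highest and lowest of the 4 wild-type libraries were examined. The gap to the nearest neighbour was compared with the range of the 4. Among 33 sets of values, 7 exceeded Dixon's 95% limit, where chance gives about 1 in 20 independent sets. These sets are not independent, as the family's share of TPM includes those of the core and regulatory genes. Replicates of the null, which number 3, were not examined in this way. *Psmc3*, which was called, had its lowest wild-type value at 251 CPM, below 299.8 to 306.5 CPM in the other 3. *Psme4* had a highest value of 187 CPM beside 181 CPM at most in the others, and *Psmg2* one of 22.00 CPM beside 18.65 CPM at most. The ratio of *Psmb8* to *Psmb5* was lowest at 2.92%, beside 4.30% to 4.55% in the others.

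The share of TPM was highest in wild-type replicate 1 for the whole family, at 0.665% beside 0.586% to 0.593%, for the core genes, at 0.348% beside 0.297% to 0.305%, and for the regulatory genes, at 0.298% beside 0.271% to 0.276%. In CPM the family's sum in that library, 4553, lay within the 4535 to 4639 of the other 3. The cause was not tested.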

How the results depend on the processing

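The calls rest on few libraries. On leaving out each library in turn, members called ranged from 0 to 6 (higher 0 to 4, lower 0 to 2), all genes called from 131 to 2172 (higher 113 to 1440, lower 18 to 837), and other pathway genes called from 0 to 7 (higher 0 to 4, lower 0 to 3). The medians of the log2 fold change ranged from 0.042 to 0.15 for members, −0.018 to 0.0058 for all genes, 0.0004 to 0.081 for other pathway genes, 0.046 to 0.17 for core, 0.036 to 0.097 for regulatory, 0.23 to 0.42 for assembly, −0.45 to −0.030 for immuno- or testis-type genes and −0.12 to −0.041 for activators. Signs turned within −0.082 to 0.14 for *Psma8*, −0.45 to 0.27 for *Psmb8*, −0.15 to 0.11 for *Psmb9*, −0.56 to 0.081 for *Psmb11*, −0.011 to 0.049 for *Psmc1*, −0.025 to 0.029 for *Psme4* and −0.078 to 0.036 for *Psmf1*.

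The sample titles do not say whether the replicate numbers pair the libraries. Same-numbered libraries had correlations of −0.012, −0.089 and −0.17 in their deviations from the group means, which cannot settle it. With the replicate block, calls fell to 0 members (0 higher, 0 lower), 109 genes in all (94 higher, 15 lower) and 0 other pathway genes (0 higher, 0 lower), the median of all genes was 0.0012 and *Psmf1* turned to 0.0052.

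On log2(TPM + 1) and log2(TPM + 0.1), 0 and 0 members were called higher and 4 and 4 lower, 2522 and 2506 genes in all (440 and 443 higher, 2082 and 2063 lower), and 2 and 2 other pathway genes higher and 5 and 5 lower. The medians were −0.16 and −0.17 for members, −0.23 and −0.25 for all genes, −0.20 and −0.20 for other pathway genes, −0.12 and −0.12 for core, −0.18 and −0.18 for regulatory, 0.025 and 0.026 for assembly genes, −0.38 and −0.38 for activators, and −0.31 on the second for immuno- or testis-type genes. *Psma7* (−0.082 and −0.082), *Psmb6* (−0.18 and −0.18), *Psma8* (−0.23 and −0.24), *Psmb9* (−0.15 and −0.22), *Psmc1* (−0.22 and −0.23) and *Psmg2* (−0.085 and −0.088) turned negative.

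With no scaling beyond library size, 904 genes were lower, the medians were 0.016 for members, −0.084 for all genes, −0.055 for other pathway genes, −0.008 for regulatory genes and −0.17 for activators, and *Psmb6* (−0.017), *Psma8* (−0.054), *Psmb9* (−0.072) and *Psmc1* (−0.065) turned negative. With the length trend removed, 4 members were called higher and 2 lower, beside 1247 and 574 of all genes. The medians in that fit were 0.016 for members, 0.016 for core, 0.14 for assembly genes, −0.16 for activators and −0.014 for all genes. In it *Psmb6* (−0.10), *Psma8* (−0.032), *Psmb9* (−0.066), *Psmc1* (−0.048) and *Psme4* (0.057) turned sign. DESeq2 called 2331 genes, 875 of them lower, and with it and with RLE factors the median of all genes was −0.0167 and −0.0166 and *Psmb9* was −0.0020 and −0.0036. The causes were not tested. Depth limits what can be said of *Psmb8*, *Psmb9* and *Psmb11*.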
